A study of Mus musculus with 6 samples.

Results

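The genes that copy the genome in S phase were compared between mouse pro-B cells given extra EBF and cells given an empty virus. EBF is a regulator of the earliest steps of B cell development. The genes formed a list of 48 symbols, covering origin licensing, helicase activation, the enzymes of the replication fork, nucleotide supply, the switch from G1 to S phase and chromatin assembly. Each gene was read at 1 probe set, the one with the highest mean log2(intensity + 32) over the 6 arrays of both groups. Of the 48 genes 47 were measured, among 18193 genes in all. For Chaf1a, a subunit of the chromatin assembly factor CAF-1, the platform table used here lists no probe set under that symbol alone, and it is not analysed here.

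Both groups were Pax5-/- pro-B cells, which lack a master regulator of B lineage commitment, so the deletion was shared by treated and control cells. They were kept on ST2, a stromal cell line, with IL-7 at 5 ng/ml. The EBF group was infected with the Mig-EBF retrovirus and the control group with the MigR1 retrovirus, which marks cells with GFP alone, and GFP-positive cells were sorted after 2 days for total RNA. Each group had 3 arrays, called EBF 1 to 3 and control 1 to 3. The labels give no age or sex of the source animals and do not say whether replicates were separate cultures, and the p-values therefore reflect only how far these arrays scatter, part of which may be technical. The extra EBF came from a retrovirus and not from its own locus. Ebf1 was also read in the control arrays, as given below.

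Before S phase, the origin recognition complex, Cdc6 and Cdt1 load the MCM helicase onto DNA, a step called licensing. The kinases Cdc7-Dbf4 and Cdk2-cyclin E then turn the helicase on together with Cdc45, the GINS complex and Mcm10, and DNA polymerases alpha, delta and epsilon copy the strands behind it. Many of these genes are known targets of E2F factors, and pro-B cells driven by IL-7 divide rapidly.

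The marker genes of pro-B cells were bright. Of 12, 11 exceeded 410.4 on at least 1 array, the highest reading of any Bacillus control probe set, which matches no mouse transcript; the exception was Blnk. Summed pro-B marker intensity was 72690 to 74940 in the EBF arrays and 61900 to 65240 in the controls. Of the 12 pro-B markers 9 had positive log2 differences (58% of all genes did) and 3 negative ones. The negative ones were Dntt (-0.70, called lower in both limma fits), Cd79a (-0.27) and Cd93 (-0.18). Vpreb3 was called higher in both fits (log2 0.67). With the replicate number as a block only, Igll1 (0.57), Il7r (0.42) and Cd79b (0.40) were also called higher. Of all genes 0.418% were called higher without that block and 4.8% with it. Summed intensity of 10 myeloid markers was 5702 to 5865 against 7315 to 7934, with Itgam, Mpo, S100a8 and S100a9 below that Bacillus reading on every array. Ncf1, Fcgr3 and Lyz2 were called lower in both fits (log2 -1.03, -1.33 and -0.48). The other myeloid markers passed in neither, and 4 of the 10 had positive differences. For 7 NK markers the sum was 3881 to 5373 against 5859 to 7606, with Gzmb, Prf1 and Ncr1 below that Bacillus reading. The NK markers did not move one way: Gzma was called higher, Nkg7 and Klrd1 were called lower, and the other 4 passed in neither limma fit. For 7 T cell markers the sum was 4433 to 5127 against 5066 to 5586, with Cd3d, Cd3g and Gata3 below that Bacillus reading. Only Cd28 of the T cell markers was called (lower in both fits, log2 -0.71), and 2 had positive differences and 5 negative ones. For 12 ST2 stromal markers the sum was 21260 to 30300 against 23420 to 38240, with Lum below that Bacillus reading. Of these 12, 5 had positive differences and 7 negative ones, with a median of -0.30, and 0 passed in either limma fit. The part of these shifts in the results on replication genes was not tested. Ebf1 itself read 4772, 4756 and 4082 in EBF 1 to 3 and 4204, 4276 and 4029 in control 1 to 3 at its brightest probe set (log2 0.12; limma adjusted p = 0.469), and whether that probe set lies in the part carried by the virus is not known here.

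EBF 3 stood apart from its group. Over all probe sets its log2 values correlated with control 1, 2 and 3 at 0.993, 0.990 and 0.994, and with EBF 1 and EBF 2 at 0.989 and 0.991. The counts below are therefore also given without it.

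Most replication genes read slightly higher in the EBF arrays. Of 47 members 42 had a positive log2 difference and 5 a negative one, with a median of 0.16, lowest -0.22 and highest 0.49. Over all 18193 genes 58.0% of differences were positive and the median was 0.03. Of the 5 with negative values, Orc2, Gins3, Prim2, Tyms and E2f1, 0 passed the test in either direction.

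Single genes passed the test rarely. By limma, with Benjamini-Hochberg adjustment over all 45037 probe sets tested and a threshold of 0.05, 1 member was called higher and 0 lower, where 0.418% of all genes were called higher and 0.671% lower. The called gene was Pold1, the catalytic subunit of DNA polymerase delta. With an unadjusted p below 0.05, 20 members were higher and 0 lower (42.6% higher, against 13.5% of all genes higher and 6.23% lower). The replicate numbers were taken to pair the arrays, and with the number as a block in the limma fit 10 members were called higher (21.3%) and 0 lower, where the block called 4.8% of all genes higher and 2.51% lower. These were Pold1, E2f2, Rfc4, Rrm2, Pole, Gins1, Mcm10, Prim1, Lig1 and Pola1. Without EBF 3 the fit without the block called 8 members higher (7.08% of all genes), and it called 0 without EBF 1, EBF 2, control 1, control 2 or control 3. Without EBF 3 and control 2 together it called 3, Pold1, Pole and E2f2 (3.17% of all genes). In bulk RNA, more cells in a phase and more RNA per cell cannot be told apart.

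**Figure D1:**
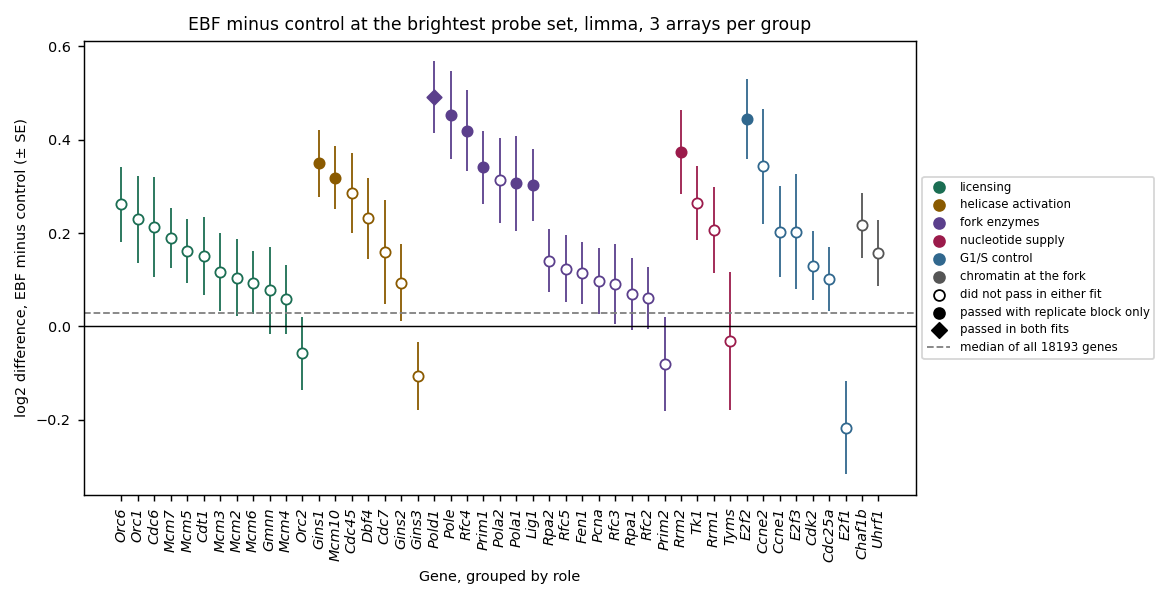
Log2 difference at the brightest probe set of each of the 47 measured genes, EBF minus control, grouped by role along the x axis, with limma's standard error as bars. The diamond is Pold1, which passed in both fits, filled circles passed with the replicate block only, open circles passed in neither, and the dashed line is the median of all genes, 0.03.

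The shift was seen on every EBF array. Against the mean of the control arrays, the median member stood at 0.13, 0.18 and 0.19 (log2) in EBF 1 to 3, and at 0.02, -0.05 and 0.04 in control 1 to 3. All genes had medians of 0.02, 0.02 and 0.04 in the EBF arrays. EBF 3, the array nearest to the controls over all probe sets, had the highest median of the members. Control 2 was the lowest, with 11 of 47 members above the control mean, against 30 in control 1 and 32 in control 3. Between arrays of the same number, 36, 42 and 44 of the 47 members were higher in EBF for numbers 1, 2 and 3, and 36 were higher in all 3 pairs. Among all genes the shares were 57.8%, 49.7% and 65.1%, and 31.2% were higher in all 3 pairs. The 3 EBF arrays lay wholly above the 3 control arrays for 27 members (57.4%, against 17.2% of all genes) and wholly below for 1, Gins3 (8.06% of all genes).

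**Figure D2:**
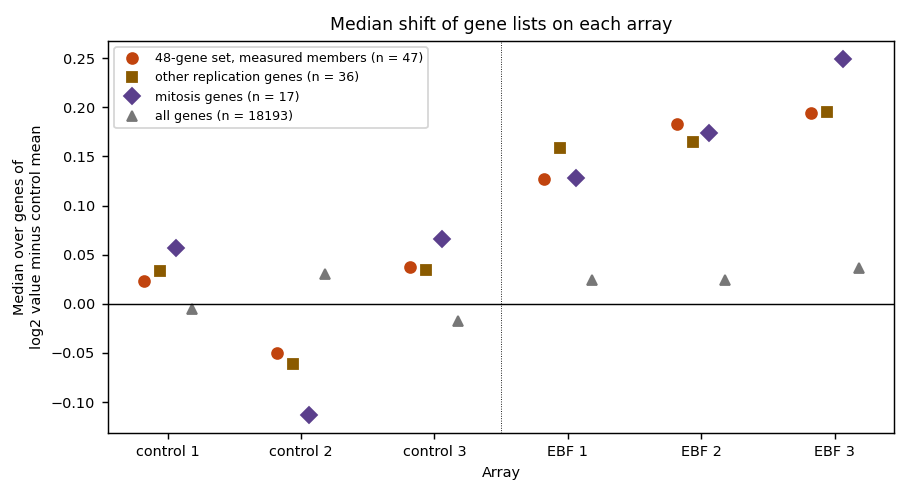
Median over genes of the log2 value minus the mean of the 3 control arrays, for each array on the x axis and for 4 sets of genes. The 47 members, the 36 other replication genes and the 17 mitosis genes sit between 0.13 and 0.25 on the EBF arrays, where all genes sit between 0.02 and 0.04.

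**Figure D3:**
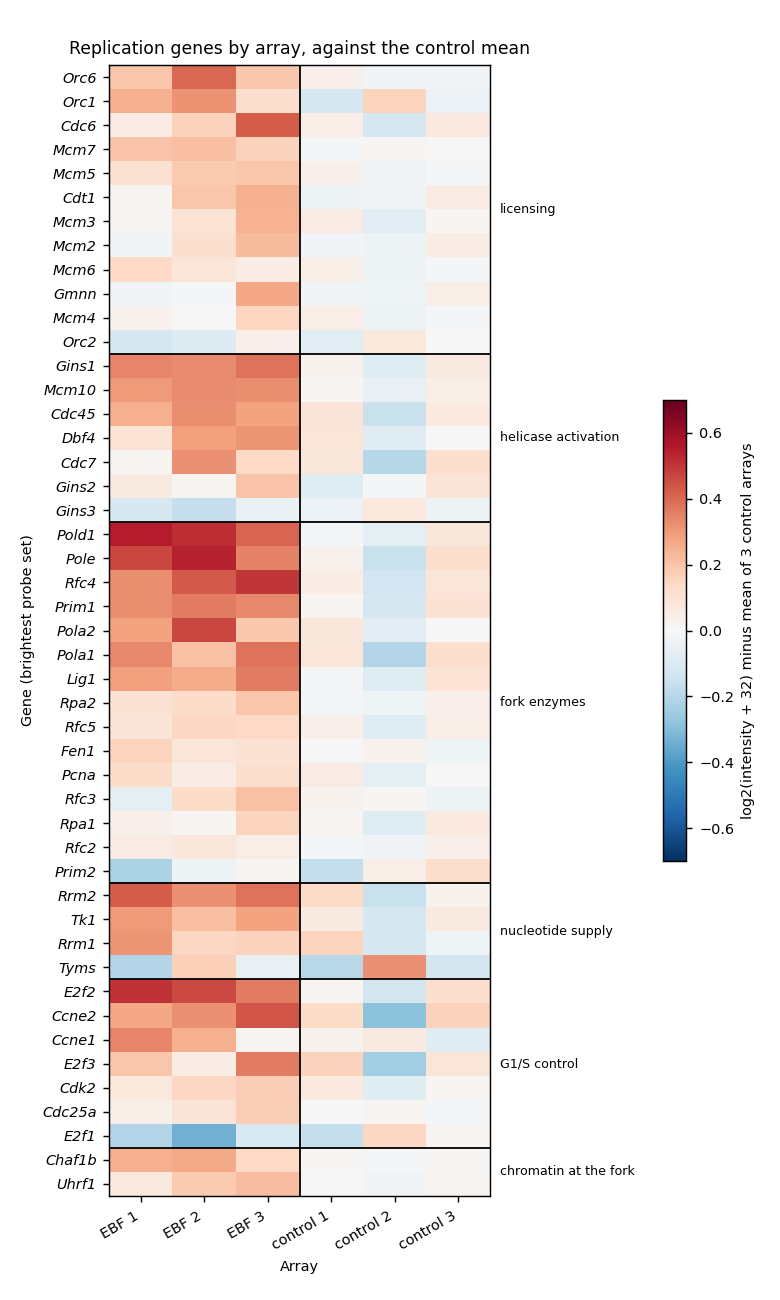
Each row is a gene and each column an array, coloured by the log2 value minus the mean of the 3 control arrays, with genes grouped by role and ordered by their difference. Fork enzymes at the top of their block, Pold1 to Lig1, are higher on all 3 EBF arrays, while Orc2, Gins3, Prim2, Tyms and E2f1 stand at the foot of theirs.

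The stretches in front of some of these genes are shown with short motifs, which were not used to choose the list. Many of its genes are known E2F targets, however, so the E2F share was not independent of that choice. RefSeq's promoter table (GRCm38.p6) held 39 of the 47 measured members, and the 250 bases before the first listed start were searched on both strands. The E2F motif was searched as TTTCCCGC, TTTCGCGC, TTTGCCGC and TTTGGCGC, the CCAAT box as CCAAT, and the EBF motif as TCCCNNGGG; overlapping matches were each kept. An E2F match lay before 11 of the 39 (28.2%), against 2.80% of 14452 measured genes in the table and 1.91% of all 27025 genes in it. They were Orc1, Cdc6, Mcm5, Mcm6, Mcm7, Gins3, Pola1, Rfc3, E2f3, Cdk2 and Cdc25a. CCAAT lay before 23 of 39 (59.0%, against 35.7% of measured genes) and the EBF letters before 3, Orc1, Pola1 and Ccne1 (7.69%, against 6.53%). A match is a description of letters and not a binding site. Members with an E2F match had a median log2 difference of 0.16 (n = 11) and those without one 0.20 (n = 28), and 1 and 7 of them were called with the block.

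The 150 bases before the start are printed 5′ to 3′ for 4 genes called with the block, for Tyms, whose difference was nearest 0, and for Pola1 and Mcm6, picked after their matches were seen. Capitals mark the motif matches, and where the reverse complement matched it reads ATTGG for the CCAAT box, GCGCCAAA for TTTGGCGC and GCGCGAAA for TTTCGCGC; the EBF letters of Pola1 match on both strands and overlap. The stretches lie at chr7:44548816-44548965, minus strand (Pold1), chr4:136172124-136172273, plus strand (E2f2, the first of 2 listed starts), chr16:23127731-23127880, minus strand (Rfc4), chr12:24708104-24708253, plus strand (Rrm2), chr5:30073626-30073775, minus strand (Tyms), chrX:93632156-93632305, minus strand (Pola1) and chr1:128359706-128359855, minus strand (Mcm6).
Pold1: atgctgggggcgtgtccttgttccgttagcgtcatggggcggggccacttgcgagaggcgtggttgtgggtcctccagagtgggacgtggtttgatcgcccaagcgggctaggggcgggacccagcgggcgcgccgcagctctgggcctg
E2f2: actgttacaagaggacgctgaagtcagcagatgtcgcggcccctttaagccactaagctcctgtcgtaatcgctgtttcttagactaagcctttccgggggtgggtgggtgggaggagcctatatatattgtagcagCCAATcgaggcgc
Rfc4: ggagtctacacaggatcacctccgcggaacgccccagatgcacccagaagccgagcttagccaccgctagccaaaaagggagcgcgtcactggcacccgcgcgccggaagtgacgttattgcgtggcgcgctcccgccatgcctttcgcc
Rrm2: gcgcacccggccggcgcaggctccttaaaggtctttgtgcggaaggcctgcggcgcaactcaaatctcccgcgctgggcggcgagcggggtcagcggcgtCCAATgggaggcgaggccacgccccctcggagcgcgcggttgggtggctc
Tyms: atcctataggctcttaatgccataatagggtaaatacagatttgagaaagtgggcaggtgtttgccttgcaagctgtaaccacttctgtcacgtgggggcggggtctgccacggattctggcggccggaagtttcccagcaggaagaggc
Pola1: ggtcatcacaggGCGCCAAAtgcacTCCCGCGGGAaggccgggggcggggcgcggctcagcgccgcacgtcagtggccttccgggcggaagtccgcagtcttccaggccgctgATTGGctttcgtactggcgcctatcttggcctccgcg
Mcm6: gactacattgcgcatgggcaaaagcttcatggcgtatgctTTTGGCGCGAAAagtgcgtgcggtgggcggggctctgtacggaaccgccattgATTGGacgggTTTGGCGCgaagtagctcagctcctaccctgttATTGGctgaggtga
Pola1 holds all 3 motifs, with an E2F match from 138 to 131 bases before its start and the EBF letters from 125 to 116. Mcm6 holds 3 E2F matches, of which 2 overlap (110 to 103 and 106 to 99 bases before the start), and 2 CCAAT boxes. In the 250 bases searched, Rrm2 and E2f2 had a CCAAT box alone, and Pold1, Rfc4 and Tyms had no match to these letters.

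Licensing genes held no call. Of 12 members 0 passed in either limma fit, 11 had positive differences (58% of all genes did), and the median was 0.13. With an unadjusted p below 0.05, 4 were higher and 0 lower, against 13.5% and 6.23% of all genes. Orc6, a subunit of the origin recognition complex, read 2405, 2781 and 2399 in EBF 1 to 3 and 2153, 2074 and 2071 in control 1 to 3. All EBF arrays were above all controls, EBF 2 most (log2 0.26 ± 0.08 SE; limma adjusted p = 0.164, blocked 0.0854). Mcm7, a subunit of the helicase ring, read 13275, 13354 and 12909 in EBF 1 to 3 and 11449, 11675 and 11531 in control 1 to 3, again without overlap (log2 0.19 ± 0.07; adjusted p = 0.189, blocked 0.147), and its call was made in a limma fit that lets the prior variance follow intensity (0.0320). Orc2, another origin recognition subunit, read 1883, 1925 and 2107 in EBF 1 to 3 and 1948, 2163 and 2047 in control 1 to 3 at its brightest probe set, and these ranges overlapped (log2 -0.06). A second Orc2 probe set read 2121, 1887 and 1630.1 in EBF 1 to 3 and 1578, 1496 and 1375 in control 1 to 3, with no overlap (log2 0.33; adjusted p = 0.171, blocked 0.0359), so the probe sets of this gene differ in direction.

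The other MCM subunits had small values at their brightest probe sets. The log2 differences were 0.10 for Mcm2, 0.12 for Mcm3, 0.06 for Mcm4, 0.16 for Mcm5 and 0.09 for Mcm6. The groups did not overlap for Mcm5 and Mcm6 and overlapped for the rest. Other probe sets gave larger values for Mcm2, 0.39 (adjusted p = 0.115, blocked 0.0312), and for Mcm3, 0.30 (adjusted p = 0.140, blocked 0.0471). Among the loaders, the values were 0.23 for Orc1, 0.21 for Cdc6 and 0.15 for Cdt1, and 0.08 for Gmnn, which encodes geminin, the inhibitor of Cdt1. Dimmer probe sets had -0.02 with overlapping groups for Orc1 (mean intensity of 719) and 0.23 without overlap for Cdt1 (3987). Cdc6 read 1867, 2007 and 2419.8 in EBF 1 to 3 and 1858, 1654 and 1882 in control 1 to 3, and Gmnn read 3789, 3812 and 4645 in EBF 1 to 3 and 3802, 3776 and 3975 in control 1 to 3. For both genes EBF 3 was the highest array, and EBF 1 lay inside the control range. Without EBF 3 the values were 0.11 for Cdc6 and -0.02 for Gmnn.

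Among the 7 genes that turn the helicase on, Gins1 and Mcm10 were called with the block and 0 without it. Of the 7, 6 had positive differences, with a median of 0.23. The shares of all genes were 4.8% called higher with the block, 0.418% without it, and 58% with positive differences. Gins1, a subunit of the GINS complex, read 1821, 1811 and 1873 in EBF 1 to 3 and 1456, 1348 and 1497 in control 1 to 3. The EBF arrays were close together and above every control (log2 0.35 ± 0.07, 1.27-fold; limma adjusted p = 0.0765, blocked 0.0265; without EBF 3, 0.0397). Mcm10, which helps the helicase leave the origin, read 2316, 2367 and 2362 in EBF 1 to 3 and 1889.9, 1811 and 1928 in control 1 to 3. These groups did not overlap either (log2 0.32 ± 0.07; adjusted p = 0.0805, blocked 0.0359; without EBF 3, 0.0398). Dimmer Mcm10 probe sets had 0.04 with overlapping groups (mean intensity of 320) and 0.26 without overlap (mean intensity of 162). With the mean of all its probe sets, Mcm10 had 0.21 (limma adjusted p = 0.111). Cdc45, the helicase cofactor, read 1733, 1832 and 1779 in EBF 1 to 3 and 1553, 1301 and 1525 in control 1 to 3 and had a log2 difference of 0.29 (adjusted p = 0.157, blocked 0.0785). Its other probe set, with a mean intensity of 1022, had 0.03 and overlapping groups.

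The remaining GINS genes depended on the probe set. Gins2 read 3294, 3199 and 3633 in EBF 1 to 3 and 2976, 3138 and 3365 in control 1 to 3 at its brightest one, with overlapping groups (log2 0.09), and 1763, 1844 and 1767 in EBF 1 to 3 and 1387, 1303 and 1458 in control 1 to 3 at the other, without overlap (log2 0.37; limma adjusted p = 0.0694, blocked 0.0270). Gins3 read 1530.1, 1479.7 and 1605 in EBF 1 to 3 and 1608, 1747 and 1617 in control 1 to 3, all EBF arrays below all controls (log2 -0.11; adjusted p = 0.459), and had 0.20 at its other probe set, where all EBF arrays were above all controls (adjusted p = 0.183). The kinase gene Cdc7 had 0.16 and overlapping groups. Its activating subunit gene Dbf4 had 0.23 without overlap, and neither passed in either fit. Dimmer probe sets had 0.04 for Cdc7 (mean intensity of 924) and -0.13 for Dbf4 (153), both with overlapping groups. With the mean of all probe sets of a gene, Cdc7 had 0.10 and Dbf4 0.05.

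Fork enzymes held 6 of the 10 calls made with the block and the only call made without it. Of 15 members 1 was called higher and 0 lower (6 higher with the block), 14 had positive differences, and the median was 0.14. Over all genes 0.418% were called higher without the block and 4.8% with it, and 58% had positive differences. Pold1 read 5459.5, 5345 and 4958 in EBF 1 to 3 and 3693, 3549 and 3944 in control 1 to 3. Every EBF array was above every control, a rise from 3729 ± 200.2 to 5254 ± 263 (SD, n = 3 per group; log2 0.49 ± 0.08 SE, 1.41-fold; limma adjusted p = 0.0307, blocked 0.0111). The other Pold1 probe set read 3732, 4249.8 and 3605 in EBF 1 to 3 and 2495, 2288 and 2531 in control 1 to 3 and was called as well (log2 0.65 ± 0.09; adjusted p = 0.0149, blocked 0.00486). The call at the brightest probe set was lost without any 1 array other than EBF 3, with adjusted p up to 0.160, while the log2 difference stayed between 0.46 and 0.53.

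Pole, the catalytic subunit of polymerase epsilon, read 2192, 2306 and 2016 in EBF 1 to 3 and 1611, 1411 and 1719.6 in control 1 to 3, with no overlap (log2 0.45 ± 0.09, 1.37-fold; limma adjusted p = 0.0778, blocked 0.0258; without EBF 3, 0.0228). Rfc4, a subunit of the clamp loader, read 2874, 3092 and 3249 in EBF 1 to 3 and 2369, 2079 and 2424 in control 1 to 3, again without overlap, and here EBF 3 was the highest (log2 0.42 ± 0.09; adjusted p = 0.0775, blocked 0.0196; without EBF 3, 0.0426). Its second probe set gave 0.43 (blocked 0.0176). The other clamp loader genes had log2 differences of 0.06 (Rfc2), 0.09 (Rfc3) and 0.12 (Rfc5), and none of the 3 passed in either limma fit at the brightest probe set (unadjusted p below 0.05 for 0 of them without the block and 0 with it). The dimmer Rfc3 probe set had 0.28, with all EBF arrays above all controls (adjusted p = 0.119, blocked 0.0568). Rfc2 read 4362, 4429 and 4324 in EBF 1 to 3 and 4148, 4122 and 4300.4 in control 1 to 3 (log2 0.06), with all EBF arrays just above all controls. Its 2 dimmer probe sets had log2 differences of -0.26 and -0.04.

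Primase and polymerase alpha start each new strand. Prim1, the catalytic primase subunit, read 4276, 4400.1 and 4304 in EBF 1 to 3 and 3441, 3139 and 3663 in control 1 to 3 (log2 0.34 ± 0.08; limma adjusted p = 0.0978, blocked 0.0374; without EBF 3, 0.0483), with all EBF arrays above all controls. A second Prim1 probe set had 0.40 (adjusted p = 0.0688, blocked 0.0247). Prim2, the accessory primase subunit, read 3354, 3821 and 3958 in EBF 1 to 3 and 3482, 4047 and 4259 in control 1 to 3, with overlapping groups and a log2 difference of -0.08; its other 2 probe sets had -0.03 and -0.13. Pola1, the catalytic subunit of polymerase alpha, read 2713, 2473 and 2795 in EBF 1 to 3 and 2274, 1855 and 2329 in control 1 to 3, and control 2 was the lowest array (log2 0.31 ± 0.10; adjusted p = 0.181, blocked 0.0443; without EBF 3, 0.156). The value was 0.20 without control 2, and a dim Pola1 probe set, with a mean intensity of 245, had -0.13 and overlapping groups. Pola2, its accessory subunit, read 2293, 2610 and 2150.4 in EBF 1 to 3 and 1988, 1774 and 1883 in control 1 to 3 (log2 0.31; adjusted p = 0.150, blocked 0.0690; without EBF 3, 0.0417). Dim Pola2 probe sets had 0.07 without overlap (mean intensity of 294) and 0.01 with overlapping groups (282.5).

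Lig1, the ligase that seals Okazaki fragments, read 5438, 5324 and 5724 in EBF 1 to 3 and 4412, 4187 and 4754 in control 1 to 3, without overlap (log2 0.30 ± 0.08; limma adjusted p = 0.120, blocked 0.0406; without EBF 3, 0.0762). Pcna, the sliding clamp, read 17566, 16655 and 17415 in EBF 1 to 3 and 16718, 15410 and 16139 in control 1 to 3, and control 1 lay inside the EBF range (log2 0.10 ± 0.07; adjusted p = 0.475). Fen1, the flap nuclease, had 0.11, and the single-strand binding genes Rpa1 and Rpa2 had 0.07 and 0.14. A second Rpa2 probe set had 0.34 (adjusted p = 0.103, blocked 0.0331).

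**Figure D4:**
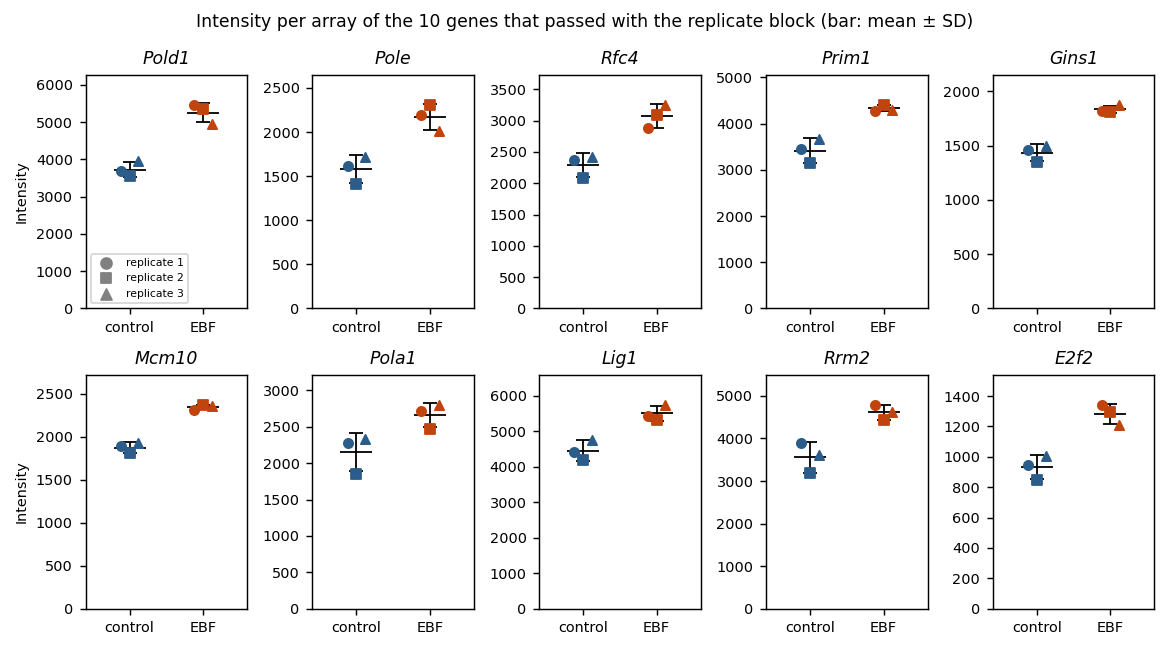
Intensity on each array (y axis from 0) of the 10 genes called higher with the replicate block, for the 3 control and 3 EBF arrays; bars are mean ± SD and marker shapes give the replicate number. In all 10 genes the EBF arrays lie above the control arrays, from Pold1 (control mean 3729 and EBF mean 5254) to E2f2 (934 and 1281).

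The largest difference in nucleotide supply was that of Rrm2, a subunit of ribonucleotide reductase. Of 4 members 0 were called without the block and 1, Rrm2, with it, where 0.418% and 4.8% of all genes were called higher. Rrm2, the regulatory subunit made in S phase, read 4777, 4435 and 4625 in EBF 1 to 3 and 3904, 3177 and 3605 in control 1 to 3, without overlap (log2 0.37 ± 0.09, 1.30-fold; limma adjusted p = 0.109, blocked 0.0235; without EBF 3, 0.0571). Its other 2 probe sets had 0.33 and 0.50 (blocked 0.0330 and 0.0108). Rrm1, the large subunit, had 0.21 and overlapping groups (adjusted p = 0.274). Tk1, thymidine kinase, read 3385, 3176 and 3343 in EBF 1 to 3 and 2863, 2513 and 2869 in control 1 to 3, again without overlap (log2 0.26; adjusted p = 0.159, blocked 0.0650).

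Tyms, thymidylate synthase, gave no single direction. Its brightest probe set read 356, 469.8 and 399 in EBF 1 to 3 and 359.6, 527 and 377 in control 1 to 3, with control 2 the highest array (log2 -0.03 ± 0.15; limma adjusted p = 0.928). The difference turned positive without EBF 1 (0.06), without control 2 (0.13) and without EBF 3 and control 2 (0.14). Another probe set read 438, 363 and 356 in EBF 1 to 3 and 278, 235 and 307 in control 1 to 3, with no overlap (log2 0.45; adjusted p = 0.116, blocked 0.0235). The 4 Tyms probe sets had mean intensities between 167 and 415 over all arrays, where the highest Bacillus control on an array read 324 to 410.4.

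In the control of S phase entry, E2f2 and E2f1 differed in sign. E2f2, an activator of the E2F family, read 1339, 1297 and 1207 in EBF 1 to 3 and 945, 849 and 1009 in control 1 to 3, all EBF arrays above all controls (log2 0.45 ± 0.09, 1.36-fold; limma adjusted p = 0.0625, blocked 0.0187; without EBF 3, 0.0210; without EBF 3 and control 2, 0.0473). Its second probe set read 1357, 1157 and 1069 in EBF 1 to 3 and 849, 651 and 853 in control 1 to 3 (log2 0.59; adjusted p = 0.0839, blocked 0.0108). E2f1, the founding activator, read 2427, 2217 and 2599 in EBF 1 to 3 and 2493, 3109 and 2845 in control 1 to 3 at its brightest probe set, with overlapping groups (log2 -0.22 ± 0.10; adjusted p = 0.288), while a dimmer one had 0.22 without overlap. E2f3 had 0.20, with EBF 2 below 2 of the controls, and 0.08 without control 2. The difference between E2f2 and E2f1 was not tested.

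Cyclin E genes were higher without passing. Ccne2 read 1611, 1664 and 1814 in EBF 1 to 3 and 1456, 1082 and 1487 in control 1 to 3, control 2 being far below the other arrays (log2 0.34 ± 0.12; limma adjusted p = 0.200, blocked 0.0626). Without control 2 the Ccne2 value was 0.20. Ccne1 read 4910.4, 4602 and 3909 in EBF 1 to 3 and 3934, 4032 and 3637 in control 1 to 3, where EBF 3 lay inside the control range (log2 0.20; adjusted p = 0.30). A dimmer Ccne1 probe set, with a mean intensity of 838, had 0.04 and overlapping groups. Cdk2, the gene of the partner kinase of cyclin E, had 0.13. Cdc25a, the phosphatase that activates it, read 3551, 3676 and 3882 in EBF 1 to 3 and 3440.1, 3489 and 3409.6 in control 1 to 3 (log2 0.10; adjusted p = 0.452), with all EBF arrays above all controls by a narrow margin.

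At their brightest probe sets, both chromatin genes measured were higher on every EBF array than on any control, as were 17.2% of all genes. Chaf1b, a CAF-1 subunit, read 1101, 1113 and 1018 in EBF 1 to 3 and 929, 911 and 926 in control 1 to 3 (log2 0.22 ± 0.07; limma adjusted p = 0.172, blocked 0.115). Uhrf1, which guides maintenance of DNA methylation, read 7463, 8083 and 8265 in EBF 1 to 3 and 7094, 7019.9 and 7209 in control 1 to 3 (log2 0.16 ± 0.07; adjusted p = 0.278, blocked 0.229). Neither passed in either fit. Dimmer probe sets had 0.23 with overlapping groups for Uhrf1 and 0.15 without overlap for Chaf1b.

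Different probe sets of a gene mostly pointed the same way. The 47 genes had 104 probe sets, and 38 genes had more than 1. Of the 57 that were not the brightest, 50 had a mean intensity above 200, and 43 of these 50 had positive differences, with a median of 0.19. Of the 50, 1 was called higher by limma and 0 lower (12 higher and 0 lower with the block), where the shares among all probe sets with 1 symbol were 0.395% and 4.78%. No gene had probe sets above 200 that differed by more than 0.5, a limit above the largest difference at a brightest probe set (Pold1, 0.49). The widest gaps were 0.48 for Tyms, 0.44 for Pola1 and 0.44 for E2f1. Probe sets above 200 had opposite signs for Orc1, Orc2, Gins3, Pola1, Rfc2, Tyms and E2f1.

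**Figure D5:**
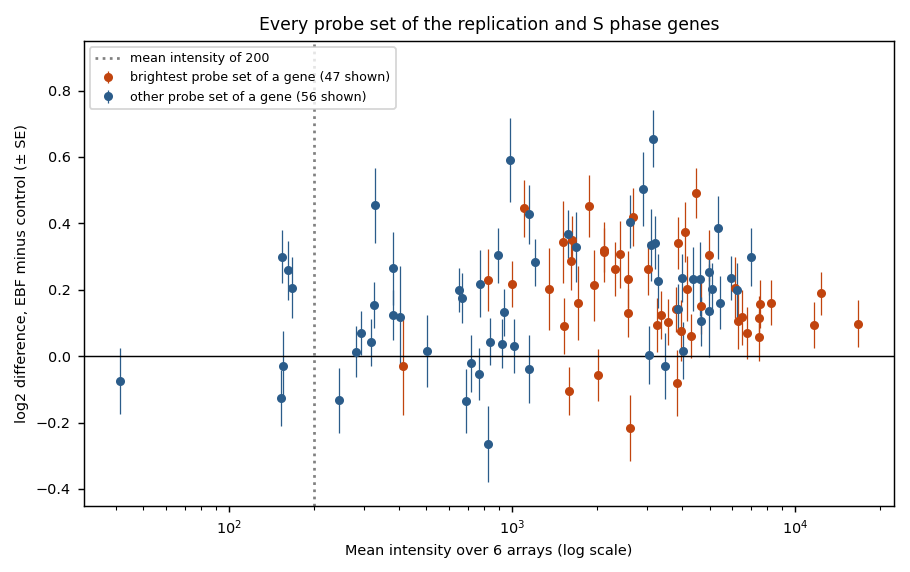
Log2 difference with limma's standard error for the probe sets of the 47 genes against mean intensity on a log scale, with the brightest probe set of each gene in red and the others in blue; 1 probe set of Cdk2 with a mean intensity of 1.5 is not drawn. Most points lie above 0 in both colours, and the highest is the second probe set of Pold1, at 0.65.

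Replication genes outside the list had a similar median. Of 36 measured genes, 2 were called higher and 0 lower (7 higher and 0 lower with the block), 35 had positive differences, and the median was 0.17. Over all genes 0.418% were called higher, 4.8% were called higher with the block, and 58% had positive differences. Pold2, the second subunit of polymerase delta, read 3137, 3164 and 3012 in EBF 1 to 3 and 2279.6, 2071 and 2291 in control 1 to 3, a rise from 2214 ± 124 to 3104 ± 81.1 (SD, n = 3 per group; log2 0.48 ± 0.07; limma adjusted p = 0.0278, blocked 0.00989). The smaller subunit genes Pold3 and Pold4 had 0.14 and -0.09 and passed in neither fit. Dctpp1, which clears dCTP and modified nucleotides, rose from 3664 ± 72.9 to 4982 ± 271 (log2 0.44 ± 0.07; adjusted p = 0.0365, blocked 0.0136). The block added Dck, deoxycytidine kinase (log2 0.46; adjusted p = 0.150, blocked 0.0270), the histone chaperone gene Asf1b (0.41; blocked 0.0163) and the fork protection gene Tipin (0.33; blocked 0.0349). It also added Dscc1 (0.45; blocked 0.0206) and Chtf18 (0.38; blocked 0.0372), which belong to an alternative clamp loader. Both calls made without the block were lost without EBF 1, EBF 2 or any 1 control array, and when arrays were scaled to the same median. Without EBF 3, 6 genes were called (7.08% of all genes were called higher), and without EBF 3 and control 2 it was 2 (3.17%).

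Among 14 E2F and pocket protein regulators 0 passed by limma. With an unadjusted p below 0.05, 4 were higher and 1 was lower, against 13.5% and 6.23% of all genes. The block called 2 higher, against 4.8% of all genes. These were the repressive family members E2f8 (log2 0.36; adjusted p = 0.0932, blocked 0.0226) and E2f7 (0.31; 0.166, blocked 0.0358). E2f5 had 0.30 (adjusted p = 0.147, blocked 0.0571). The retinoblastoma gene Rb1 had -0.13, and the CDK inhibitor genes Cdkn1a and Cdkn1b had -0.21 and -0.27. Neither inhibitor passed in either fit.

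Mitosis genes had a similar median. Of 17 measured (18 listed, without Ccnb1) 17 had positive differences (58% of all genes did) and the median was 0.19. By limma 0 passed, and the block called 2 higher (4.8% of all genes). With an unadjusted p below 0.05, 8 were higher and 0 lower, against 13.5% and 6.23% of all genes. Mki67, the proliferation marker Ki-67, read 8065, 8058 and 8126 in EBF 1 to 3 and 6729, 5659 and 6758 in control 1 to 3 (log2 0.34; adjusted p = 0.119, blocked 0.0386), and the mitotic kinase gene Plk1 read 4459.6, 4146 and 4395 in EBF 1 to 3 and 3568, 3194 and 3781 in control 1 to 3 (log2 0.30; adjusted p = 0.140, blocked 0.0450). Both genes were higher on all EBF arrays than on any control. No difference between the mitosis genes and the replication genes was tested.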

How the data were processed

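The authors deposited 1 linear intensity per probe set for each of the 6 arrays; how these intensities were extracted and normalized is not given in the sources used here. Although a rat array is named in the design text, the platform table and the organism label are those of mouse. No further scaling was applied: 2% trimmed means of the arrays differed by at most 1.03 times and medians by at most 1.06 times. From the deposited values, log2(intensity + 32) was computed, so fold changes are on that scale. After 64 Affymetrix controls were left out, 45037 probe sets were fitted, EBF minus control, by lmFit and eBayes of limma 3.58.1 (R 4.3.3, two-sided tests). Of these, 34945 had 1 gene symbol, 932 several and 9160 none listed. Only the fit without the block was run on simulated data, drawn with independent arrays. The fit with the replicate block was not checked in that way. All 47 members' gene IDs carried the same symbol in RefSeq.

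Deviations from the group means correlated at 0.316, 0.251 and 0.505 between arrays numbered 1, 2 and 3, each above the limit of 0.1, so the numbers were taken to pair the arrays; this is inferred from the arrays, as the labels carry only numbers. The members and lists were chosen with earlier results of these data known. By rule, array values were given for the 2 members with the smallest p and the 1 nearest 0 in each role and for those called in either fit (21 genes), and 12 genes of the other lists were named by p or call; others were picked after their values were seen. The number of arrays limits the precision.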

Additional observations from a re-analysis of the deposited data

How the results depend on the processing

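The count of members called higher, 1 as reported, was 3 with an intensity trend in eBayes (0.764% of all genes), 10 with the replicate block (4.8%), 6 with the mean of all probe sets of a gene (0.934%), 3 without EBF 3 and control 2 (3.17%), and 0 to 8 when 1 array was left out (0.121% to 7.08%). The count of other replication genes called, 2 as reported, was 0 after scaling to the median, 4 with the trend, 7 with the block, 5 with the probe set mean and 0 to 6 without 1 array. For the E2F and pocket protein regulators, 0 as reported, it was 2 with the block, 1 with the probe set mean, 1 without EBF 3 and control 2 and 0 to 1 without 1 array; for mitosis genes, 0 as reported, it was 2 with the block and 1 with the probe set mean. The cause was not tested. The median difference of members stayed between 0.13 and 0.19 under all settings run, and 0 members were called lower under any. With the probe set mean, Orc2 (0.15), Gins3 (0.047), Rfc2 (-0.081) and Tyms (0.22) changed sign, and Pola1 was 0.087. Without EBF 3, Gmnn was -0.019; without EBF 3 and control 2, Gmnn (-0.032), Mcm4 (-0.0042), Rpa1 (-0.017) and Tyms (0.14) changed sign. Tyms ranged from -0.13 to 0.13 without 1 array. Scaling to the median moved the median of all genes from 0.03 to 0.002, and 42 members kept positive differences. Signal near the Bacillus controls limits Tyms.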
